A study of Mus musculus with 2 samples.

Results

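The cytoplasmic ribosomal protein genes encode the proteins of the large (Rpl) and small (Rps) ribosomal subunits and of the stalk (Rplp). They were taken as all autosomal protein-coding genes of the mm10 build whose symbol is Rpl or Rps plus a number, with an optional final a, l, x or y, together with Rplp0, Rplp1, Rplp2 and Rpsa. The rule gave 77 genes, 44 of the large subunit, 30 of the small subunit and 3 of the stalk, among 19962 autosomal protein-coding genes with a known strand. A further 4 genes that match the symbol rule lie on X and were left out. Binding of TCF12, an E protein of the basic helix-loop-helix family whose members bind the E-box CANNTG, was measured in CH12.LX cells by ChIP-seq, the sequencing of DNA recovered with an antibody. CH12.LX is an immortalised line from a B-cell lymphoma of a female mouse of strain B10.H-2aH-4bp/Wts, of unknown age. There was 1 group with 2 biological replicates, both of this 1 line from 1 donor, with no treatment named and no treated or untreated counterpart, so every comparison here is between genes or between peaks and none has a test between conditions.

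Ribosomal protein genes are transcribed at high and coordinated rates in growing cells, each protein being needed in about equal amounts. Their promoters are compact, and many start transcription within a pyrimidine run that becomes the terminal oligopyrimidine (TOP) tract of the mRNA, through which translation responds to nutrients. E proteins are best known in B cells for driving immunoglobulin and lineage genes through E-boxes.

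The authors' optimal list, which holds the peaks that passed the authors' IDR step (irreproducible discovery rate, a measure of how well peak ranks repeat), has 35848 peaks, of which 35369 lie on autosomes. A gene was taken to have a summit when the highest point of an optimal peak lay within 5 kb of the gene's 5' end, and signal is the value that the authors' peak caller gave each peak, in its own units. Read depth is unknown, and intervals on shares are Wilson intervals at the 95% level, for counting error only. For a count of 0 the limit given is 3 counts of the total, with the Wilson bound beside it. Marker genes were looked up beside the B cell label. A summit within 5 kb lay at all 8 B cell genes, where 48.8% of all protein-coding genes had one, among them Cd79b and Cd79a, which encode the signalling chains of the B cell receptor, at signals of 209 and 143. Summits were also found at 4 of 6 T cell genes (Lck at 116, Cd3e at 37.8, Cd3d at 35.1 and Cd3g at 22.6), 2 of 5 myeloid genes and 1 of 4 erythroid genes. None was found at Cd4, Cd8a, Lyz2, Mpo, Elane, Hba-a1, Hbb-bs or Hbb-bt.

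Promoters of the ribosomal protein genes with the strongest peaks and of the 2 genes without a summit are shown first, because the results turn on where summits lie relative to these starts. Each runs from 80 bases before to 20 bases after the annotated start on the gene's strand (RefSeq, GRCm38.p6). Capitals mark CCGGAA, the core of ETS factor sites, and the palindrome TCTCGCGAGA, each on either strand, and a pyrimidine run that begins with C within 5 bases of the start. Rps20, which has the second strongest peak, has no entry in the promoter table.
Rpl26, chr11:68901486-68901585, plus strand: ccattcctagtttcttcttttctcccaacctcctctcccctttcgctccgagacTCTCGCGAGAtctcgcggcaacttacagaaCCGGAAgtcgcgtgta
Rps15, chr10:80292351-80292450, plus strand: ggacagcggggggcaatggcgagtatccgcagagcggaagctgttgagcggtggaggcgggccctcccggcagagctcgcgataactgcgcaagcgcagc
Rpl10a, chr17:28328485-28328584, plus strand: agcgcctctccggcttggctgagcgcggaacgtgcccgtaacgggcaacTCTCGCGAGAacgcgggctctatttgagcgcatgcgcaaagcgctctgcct
Rps6, chr4:86857348-86857447, minus strand: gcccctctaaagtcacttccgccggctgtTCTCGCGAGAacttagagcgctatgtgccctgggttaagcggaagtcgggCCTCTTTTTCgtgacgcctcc
Rpl10l, chr12:66284382-66284481, minus strand: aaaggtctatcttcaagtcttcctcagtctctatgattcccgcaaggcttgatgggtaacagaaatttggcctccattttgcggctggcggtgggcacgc
Rpl32l, chr10:20208359-20208458, plus strand: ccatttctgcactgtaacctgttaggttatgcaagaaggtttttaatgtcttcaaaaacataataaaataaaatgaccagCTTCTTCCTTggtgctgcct

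TCF12 summits lay at nearly all ribosomal protein genes. An optimal summit was found within 5 kb of the 5' end at 75 of the 77 genes, 97.4% (91.0 to 99.3), against 48.8% of all 19962 protein-coding genes. Within 1 kb the count was 69 of 77, 89.6% (80.8 to 94.6), against 41.6% of all genes. All 75 strongest peaks had the highest possible scaled IDR score of 1000, which 54.1% of optimal peaks reached. All 75 also overlapped a conservative peak, but that list is nearly as long as the optimal one (35530 against 35848 peaks). The overlap therefore says little about these genes. The count stayed at 75 in the conservative list, where 48.8% of all genes had a summit, in replicate 1 alone (49.6% of all genes), in replicate 2 alone (49.7%) and at an IDR of 0.01 or less (43.1%). In each of these lists the genes without a summit were Rpl10l and Rpl32l.

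The peaks at ribosomal protein genes were strong. The strongest signal per gene had a median of 135 over the 75 genes (interquartile range 95.04 to 171, lowest 45.7, highest 253), against 56.3 (37.7 to 83.6) over the 9745 protein-coding genes with a summit. Of all optimal peaks, 4.29% exceeded the median of the ribosomal protein genes. A signal of 118 was reached by 47 of the 75 ribosomal protein genes (62.7%), and by 10% of all genes with a summit, the share that sets this threshold. Replicate 1 alone gave medians of 76.8 for ribosomal protein genes and 34.8 for all genes, and replicate 2 alone gave 53.4 and 22.8, so the ratio of the medians was 2.21 in replicate 1 and 2.34 in replicate 2, beside 2.39 in the pooled list. With 1 group and 2 replicates these ratios have no test, and they describe the lists.

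**Figure D1:**
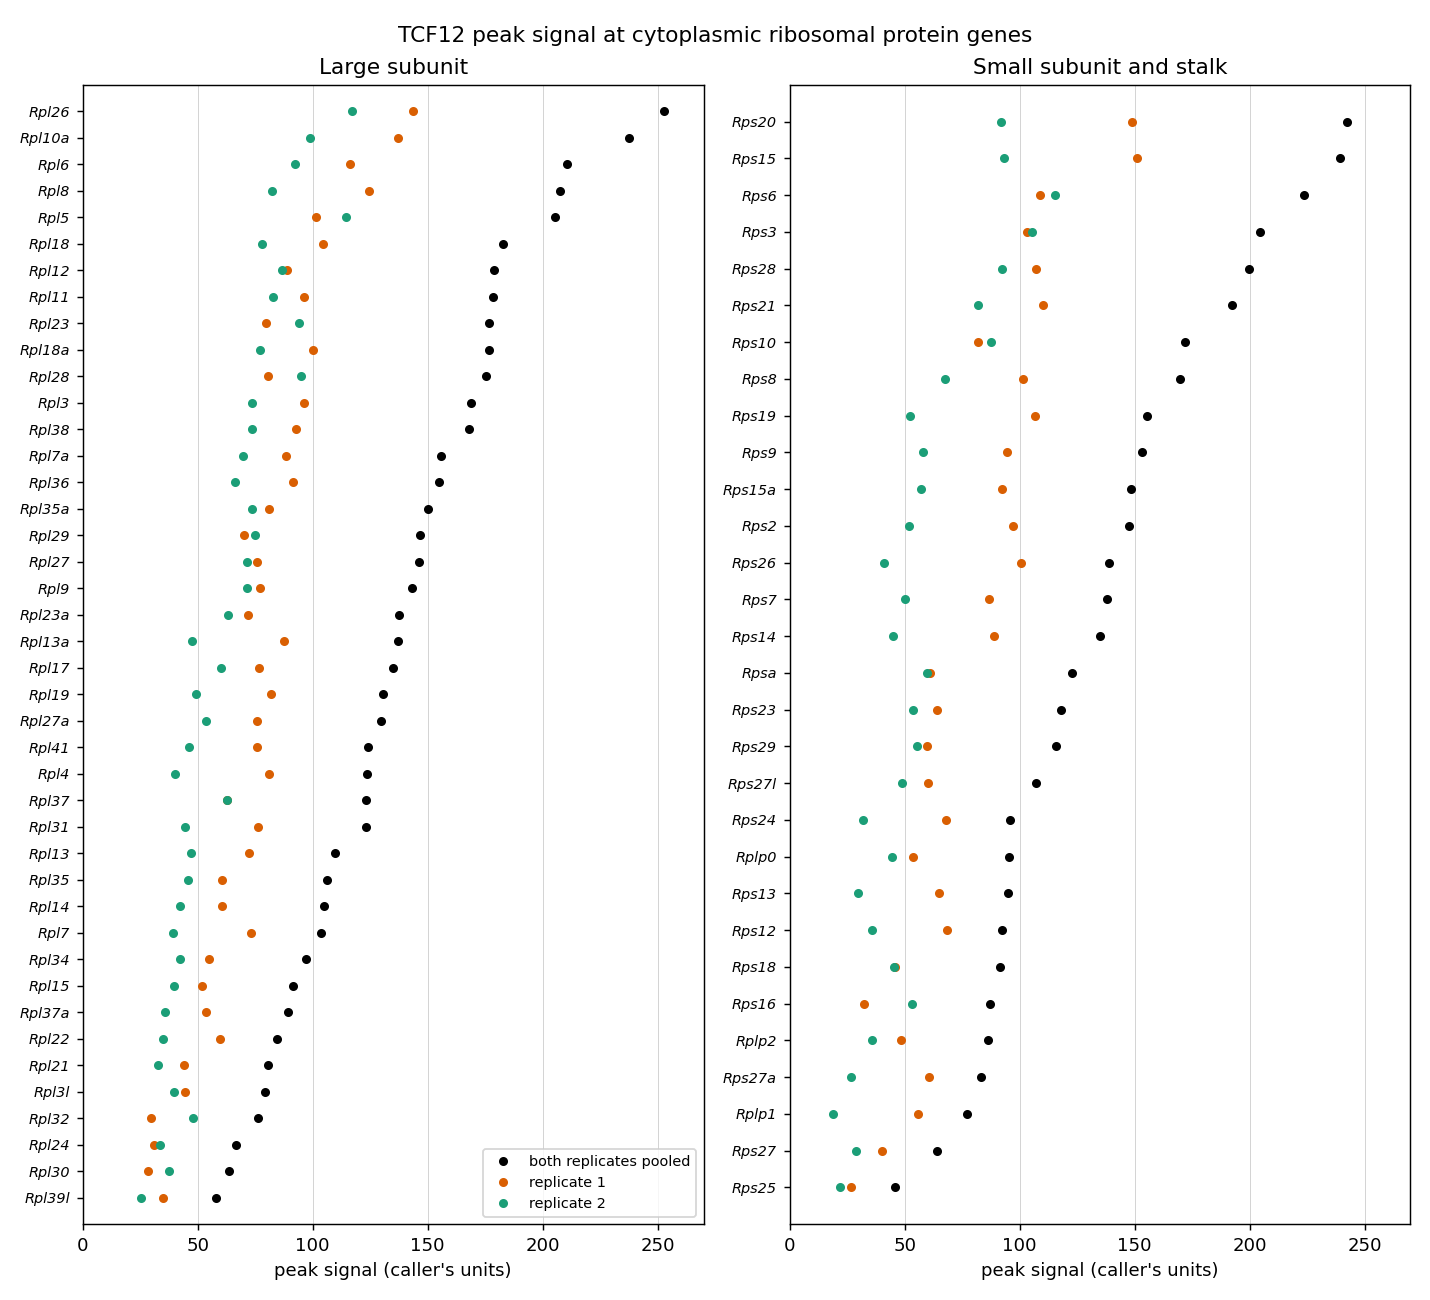
Signal of the strongest optimal peak within 5 kb of each ribosomal protein gene, in the caller's units, for the large subunit (left) and the small subunit with the stalk (right); points give the pooled data, replicate 1 and replicate 2, and genes are ordered by pooled signal, with 72 of the 75 genes drawn. Values run from 45.7 at Rps25 to 253 at Rpl26 in the pooled data, and replicate 1 is above replicate 2 at 64 of 75 genes.

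The strongest peak lay at Rpl26, which encodes a large subunit protein that also binds the mRNA of p53, on mm10 chromosome 11 from 68901525 to 68901795. Its signal was 144 in replicate 1, 117 in replicate 2 and 253 in the pooled data, with the summit 81 bp downstream of the 5' end. Only 0.46% of optimal peaks were stronger. Rps20, a protein of the small subunit's head, had 149 in replicate 1, 92.1 in replicate 2 and 242 pooled, with a peak on chromosome 4 from 3835513 to 3835774. Rps15, on chromosome 10 from 80292331 to 80292645, had 151, 93.4 and 239 in the same order. Rpl10a, a protein beside the site where tRNA leaves, had 137, 98.9 and 238, with a peak on chromosome 17 from 28328474 to 28328739. These 4 genes were each higher in replicate 1.

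Rps6, the small subunit protein phosphorylated by growth-factor-driven kinases, came next, with 109 in replicate 1, 115 in replicate 2 and 224 pooled, and its peak lay on chromosome 4 from 86857274 to 86857505. Rpl5, which with Rpl11 carries ribosomal RNA to MDM2 and so restrains it when ribosome assembly fails, had 102 in replicate 1, 115 in replicate 2 and 205 pooled. Rps3, at the mRNA entry site, had 103, 105 and 204. At these 3 genes replicate 2 was slightly above replicate 1, unlike most of the set. Further genes among the 12 strongest were Rpl6 (211 pooled), Rpl8 (208), Rps28 (200) and Rps21 (192), each of them higher in replicate 1. Rpl11 stood 15th, with 96.0 in replicate 1, 82.7 in replicate 2 and 178 pooled.

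The weakest strongest-peaks were at Rps25, with 26.6 in replicate 1, 21.8 in replicate 2 and 45.7 pooled, and at Rpl39l, with 34.8, 25.3 and 58.0. Rpl30 (63.5 pooled), Rps27 (64.1) and Rpl24 (66.7) followed. Even Rps25 was not weak among all peaks, as 35.9% of optimal peaks exceeded it.

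Values of the large and small subunit genes overlapped. The median strongest signal was 136 over 42 large subunit genes with a summit and 137 over 30 small subunit genes, with ranges of 58.0 to 253 and 45.7 to 242. All 30 small subunit genes had a summit, as did 42 of 44 large subunit genes. The 3 stalk genes, whose products recruit the GTPase translation factors, were lower, at 95.3 for Rplp0, 86.2 for Rplp2 and 77.2 for Rplp1. None of them reached 118. In replicates 1 and 2 their signals were 53.5 and 44.4 at Rplp0, 48.2 and 35.8 at Rplp2, and 55.9 and 19.1 at Rplp1.

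Mutations in a subset of these genes cause Diamond-Blackfan anaemia in humans, a failure of red cell production. All 19 genes of that list had a summit within 1 kb, where 41.6% of all protein-coding genes did, and their median strongest signal was 148 (64.1 to 253). Rps19, the gene most often mutated in that disease, had 107 in replicate 1, 52.2 in replicate 2 and 155 pooled, with a summit 35 bp downstream of its 5' end. Many ribosomal protein genes carry small nucleolar RNAs, guides of ribosomal RNA modification, in their introns. The 27 genes that host at least 1 annotated small nucleolar RNA had a median of 137, and the 48 non-hosts with a summit had 133, a small gap beside ranges of 63.5 to 242 and 45.7 to 253.

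Few paralogs of restricted expression had a peak at their own 5' end. Rpl10l, a testis-expressed copy that stands in for the X-linked Rpl10 in male meiosis, had no summit within 5 kb, no relaxed peak there in either replicate or in the pooled data, and its nearest optimal summit was 364 kb away. Rpl32l also had no optimal summit. Its nearest relaxed peak, 1272 bp upstream, had a pooled signal of 7.07, near the median of 7.47 of all relaxed peaks on autosomes, with 6.47 in replicate 1 and no relaxed peak within 5 kb in replicate 2. Rpl3l, the heart and skeletal muscle copy of Rpl3, had its only summit 3388 bp upstream, with 44.6 in replicate 1, 39.7 in replicate 2 and 79.2 pooled, and that summit lay 15 bp from the 5' end of Ndufb10, a gene of respiratory complex I. Rpl39l, a testis-expressed copy of Rpl39, had summits 1302 and 2183 bp downstream of its 5' end. Rps27l, a p53-induced copy of Rps27, was the exception, with 60.4 in replicate 1, 48.7 in replicate 2 and 107 pooled, at an annotated start of its own. Its parent Rps27 had 40.0, 29.0 and 64.1, with its 5' end 67 bp from that of Rab13. Rps4l of the fixed list is not in the gene table used here.

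**Figure D2:**
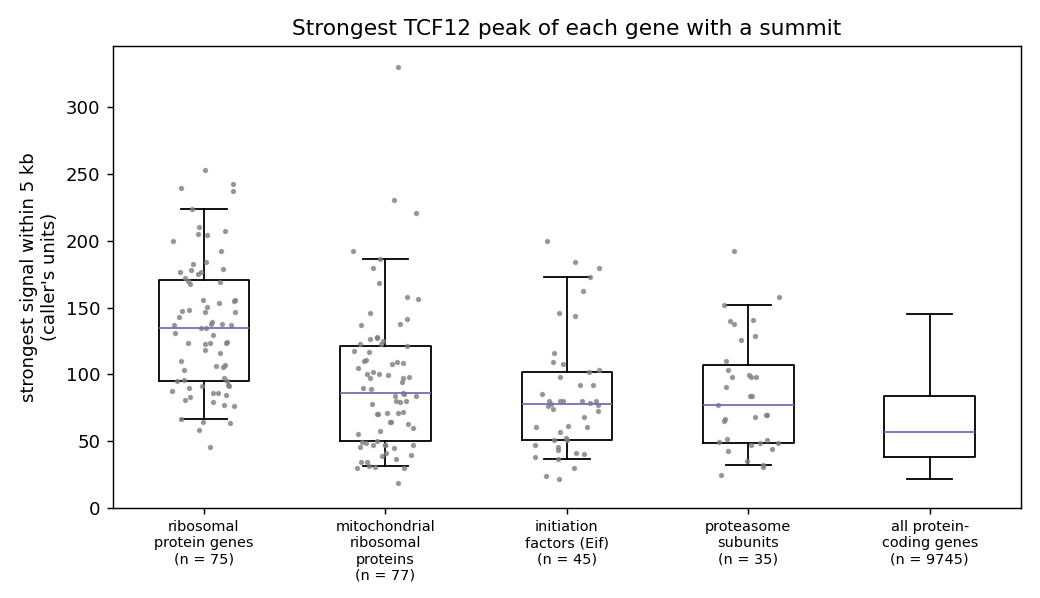
Strongest signal within 5 kb of the 5' end, in the caller's units, for genes with a summit; boxes give the quartiles and median, whiskers the 5th and 95th percentiles and points single genes (not drawn for all genes). Ribosomal protein genes have a median of 135, against 85.7 for mitochondrial ribosomal proteins, 77.7 for initiation factors, 77.1 for proteasome subunits and 56.3 for all genes.

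Having a summit was shared with other housekeeping gene families, while the signal was not at the same level. Of 78 mitochondrial ribosomal protein genes, 77 had a summit within 5 kb (98.7%), as did 35 of 38 proteasome subunit genes (92.1%) and 45 of 52 genes with an Eif symbol (86.5%), which include initiation factors and some of their regulators. Their median strongest signals were 85.7, 77.1 and 77.7, and 20, 8 and 7 of those genes reached the signal of 118, against 47 of the 75 cytoplasmic ribosomal protein genes. The lists overlap widely, with the mitochondrial ribosomal protein gene Mrps7 at 331, above every cytoplasmic one, and the proteasome gene Psma2 at 193. No test was made between lists, since genes are not replicates.

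Among other genes of translation, the ribosomal proteins outside the symbol rule and genes with similar symbols had the median nearest to that of the set. All 7 that were measured had a summit within 1 kb, with a median of 141. Rpl7l1 had a signal of 251, Rpl36al 162, Rack1, the scaffold of the small subunit, 147, and Fau, which encodes a ribosomal protein fused to a ubiquitin-like sequence, 137. Of 12 genes for elongation factors and other TOP mRNAs, 11 had a summit, with a median of 87.2. Eef2, the translocation factor, had 199 and Eef1a1, which delivers aminoacyl-tRNA, had 132, whereas Tpt1 had 43.0 and Pabpc1 had no summit. Of 31 ribosome biogenesis genes, 30 had a summit, with a median of 77.9, and Ltv1, a small subunit assembly factor gene, had none.

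Summits lay close to the start, mostly downstream of the annotated 5' end. Over the 75 genes the median position of the strongest summit was 38 bp downstream of the 5' end, and 55 (73.3%) lay within 100 bp of it, against 42.2% of all genes with a summit. Where the strongest summit lay within 1 kb, it was downstream at 49 of 64 ribosomal protein genes (76.6%), with a median position of 35.5 bp, and at 57.1% of 7471 protein-coding genes, with a median of 17 bp. Summits at Rpl28, Rpl34 and Rps7 lay 2, 3 and 5 bp downstream of the 5' end. Rpl14, Rpl15 and Rplp1 were among those upstream, by 43, 62 and 102 bp. The 5' end here is the outer end of the annotated gene span, so the offset depends on the start used. In the separate mm9 list, measured from the nearest annotated transcript start, the median position was only 4.5 bp downstream over 68 genes. No share of all genes was measured in that way.

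**Figure D3:**
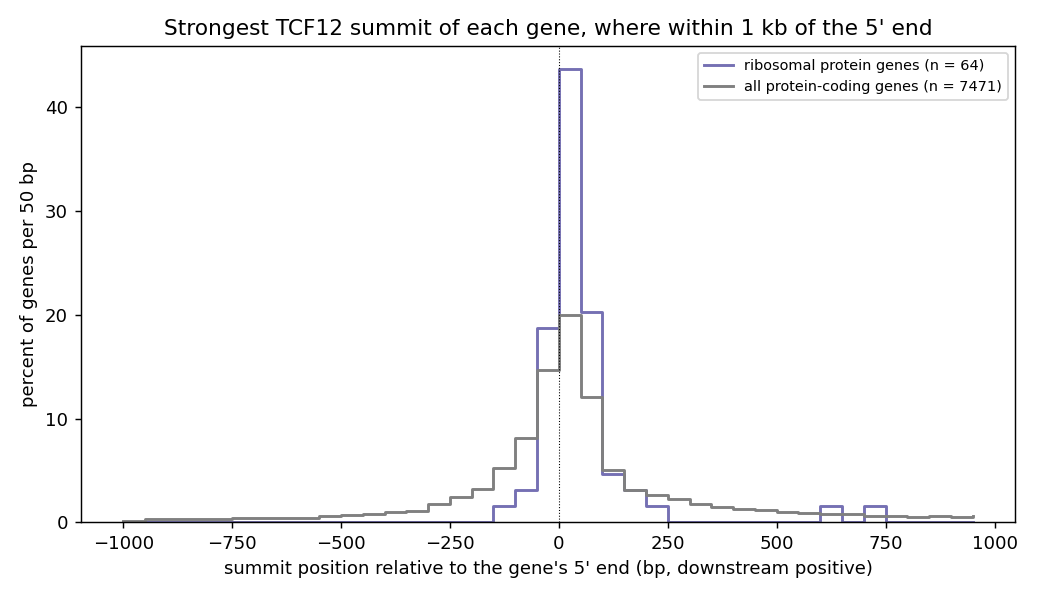
Position of each gene's strongest summit relative to its 5' end, in bp with downstream positive, as percent of genes per 50 bp, for the 64 ribosomal protein genes and the 7471 protein-coding genes whose strongest summit lay within 1 kb. The ribosomal protein genes crowd into the first bins downstream of the annotated 5' end (median 35.5 bp), and all genes spread further to both sides (median 17 bp).

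At 11 genes the strongest summit was more than 1 kb from the end of the annotated gene span, and at 5 of these it lay within 140 bp of another annotated start. At Rpl18 the summit (183 pooled) was 2614 bp inside the span and 10 bp downstream of a start in the promoter table, and it was 79 bp from the 5' end of Sphk2, a sphingosine kinase gene, so it cannot be given to either gene. At Rpl19 (131) it was 4931 bp inside and 10 bp downstream of such a start, at Rps2 (148) 1985 bp and 43 bp, and at Rps27l 1462 bp and 0 bp. Rpl22, whose loss in mice impairs T cell development, had its summit (84.5) 1430 bp inside the span and 140 bp downstream of a listed start. Rpl36 (155, at 3297 bp) and Rpl17 (135, at 1582 bp) have no entry in the promoter table. In the separate mm9 list their strongest summits lay close to an annotated transcript start, 15 bp upstream at Rpl36 and 65 bp downstream at Rpl17. Coordinates were not converted between builds, so whether these are the same peaks was not tested. Rpl35 had its strongest summit (106) 2870 bp upstream, 65 bp from the 5' end of Arpc5l, and a summit of its own 31 bp upstream with a signal of 95.9. Measured on mm10 from the nearest start in the promoter table or the span's own 5' end, 63 of the 75 strongest summits (84.0%) lay within 100 bp. Of all genes with a summit, 51% did when measured in the same way, which shortens distances by its choice of start. The median position over the 75 genes was 24 bp downstream.

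One pair of neighbouring genes shared a strongest peak, so the 75 genes rest on 74 distinct strongest peaks. The 3 summits closest to the 5 kb limit on the inside were those of Rpl19 at 4931 bp, Rpl36 at 4588 bp and Rplp2 at 4334 bp upstream, with signals of 131, 22.8 and 54.1. The closest on the outside were at 5233 bp for Rpl12, 5301 bp for Rpl23a and 5436 bp upstream for Rpl32, with signals of 111, 13.5 and 19.9.

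A single summit lay within 5 kb at 42 of the 75 genes and 2 or more at 33, which is 42.9% of the 77 genes against 22.7% of all protein-coding genes. At least 3 were found at 11 genes, among them Rps15, Rpl28, Rpl36, Rps15a, Rpl13a, Rpl41, Rpl35, Rps18, Rplp2 and Rps27a, which is 14.3% of the 77 genes against 9.15% of all protein-coding genes. These shares of all genes include genes with no summit. Of the 9745 genes with a summit, 4529 had 2 or more and 1827 had 3 or more. Among genes with a summit, neither share was therefore higher at the ribosomal protein genes. Of mitochondrial ribosomal protein, Eif and proteasome genes, 35.9%, 48.1% and 39.5% had 2 or more. The highest number was 5, at Rplp2, of which 3 lay between 3438 and 4334 bp upstream. Another protein-coding gene began within 1 kb at 14 ribosomal protein genes, for example Ndufa7 10 bp from Rps28, Med22 43 bp from Rpl7a and Card6 51 bp from Rpl37. A summit between such close starts cannot be given to either gene. This does not cover all 14 genes. At Rps2, 64 bp from Rnf151, the strongest summit lay 1985 bp inside the span and 43 bp downstream of a listed start. At Rpl36, 323 bp from Micos13, it lay 3297 bp inside. Rpl35a, 692 bp from Iqcg, had separate summits 25 and 711 bp downstream of its 5' end. The median strongest signal was 133 at these 14 and 135 at the 61 others with a summit.

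Peaks at these genes were often narrow, as strong peaks were in general. The strongest peak was narrower than the usual width of 384 bp at 36 of 75 genes (48.0%), against 5.65% of all optimal peaks. Of the 1520 optimal peaks at least as strong as the median of these genes, 85.1% were narrower too. That set holds only peaks of this strength, whereas the 75 include weaker ones.

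**Figure D4:**
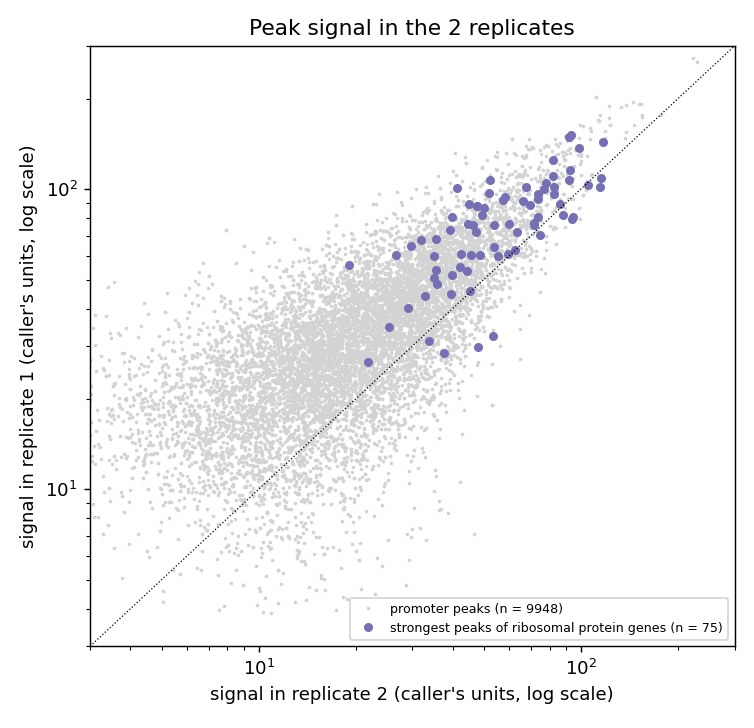
Signal in replicate 1 (vertical) against replicate 2 (horizontal), in the caller's units on log axes, for 9948 optimal peaks within 1 kb of a 5' end and for the strongest peaks of the 75 ribosomal protein genes; the dotted line marks equal signal. The ribosomal protein genes lie in the upper right, closer to the line (median ratio 1.32) than promoter peaks as a whole (1.53).

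Both replicates ranked the genes in a similar order. Across the 74 distinct peaks, Spearman's rho between replicates was 0.769 and Pearson's r of log2 signal was 0.731, beside 0.711 and 0.694 across 9948 promoter peaks; peaks of 1 library share its depth, and no p is given. Of the 12 strongest genes in each replicate, 8 were common to both. The ratio of replicate 1 to replicate 2 had a median of 1.32 (interquartile range 1.11 to 1.62) over the 75 genes, against 1.53 (1.14 to 2.10) over promoter peaks and 1.48 (1.27 to 1.75) over optimal peaks at least as strong as the median of these genes. Rplp1 had the highest ratio, 2.93, and Rps16 and Rpl32 the lowest, 0.609 and 0.618, with 32.5 in replicate 1 and 53.4 in replicate 2 at Rps16. No scaling of signal to depth is stated, so ratios between replicates are given as values only.

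Processed pseudogenes copy the transcribed part of ribosomal protein genes without the promoter. None of 281 annotated autosomal ribosomal protein pseudogenes held an optimal summit within its span (0 of 281, which allows a share of up to 1.07%, or 1.35% by the Wilson bound), against 1.05% of 9321 pseudogenes of all kinds, a difference not detectable at this number. Within 5 kb a summit lay at 44 of the 281 (15.7%, 11.9 to 20.4), against 8.67% of all pseudogenes. The ribosomal protein pseudogenes have a median span of 539 bp, against 924 bp for all, and how reads that match several copies were placed is not given in the sources used here.

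Sequence at the summits was read on mm9, the build of the genome used here, with the separate mm9 peak list. Of the 75 genes with an mm9 annotation, 68 had an mm9 summit within 5 kb, against 41.4% of mm9 protein-coding genes, and 54 of these summits lay in an exon, 3 in an intron and 11 outside the gene. The other 7 were Rpl10l and 6 genes with an mm10 peak, among them Rps21 (192 on mm10), Rpl3 (169), Rps29 (116) and Rpl15 (91.3). Rps21 had 110 in replicate 1 and 81.9 in replicate 2. Of 1594 other genes with an mm10 peak within 1 kb at least as strong as the weakest of the 6, 62 (3.89%) had no mm9 summit.

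The E-boxes CAGCTG and CACCTG were found at few of these summits. Searched on both strands, either of them lay wholly within 50 bp of the summit at 2 of 68 genes (2.94%, 0.810 to 10.1), against 14.5% of 7943 mm9 summits at promoters and 31.1% of all mm9 summits. Both were CAGCTG, and CACCTG was found at 0 of 68, which allows a share of up to 4.41%, or 5.35% by the Wilson bound. The 68 are each gene's strongest summit within 5 kb, and some lie over 1 kb from the 5' end. The promoter summits are of any strength, so these sets are not matched. The sites are given in 30 bases of mm9 sequence on the gene's strand, with the E-box in capitals.
Rplp1, E-box at chr9:61762333-61762338, minus strand: tgatcttttcctCAGCTGccgccaaggtgc
Rpl3l, E-box at chr17:24861381-24861386, plus strand: gcagaaaggtgaCAGCTGcgcctgcgtagt
The site at Rplp1 began 7 bp downstream of the annotated 5' end, and that at Rpl3l was 3393 bp upstream, in the peak at Ndufb10. Among other E-boxes, CACGTG, the site of MYC and related factors, lay at 6 of 68 summits (8.82% against 4.97% of promoter summits), and any CANNTG, which takes in all of these, at 15 (22.1% against 29.5%).

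Several other motifs lay at more of these summits than CAGCTG or CACCTG did. CCGGAA lay at 26 of 68 summits (38.2%, 27.6 to 50.1), against 20.8% of promoter summits, and its longer form CCGGAAGT, which contains it, at 6 (8.82% against 6.91%). AAGATGG, part of the site of YY1, lay at 9 (13.2% against 5.92%), TATAAA at 5 (7.35% against 1.46%) and GGGCGG, the core of SP factor sites, at 20 (29.4% against 33.4%). Of the other motifs searched, CCAAT lay at 5 (7.35% against 10.8%) and TGACGTCA at 1 (1.47% against 1.96%). Median GC content within 50 bp was 61.4% at these summits and 65.3% at all promoter summits. Shares were not matched on base composition and have no test. In the longer promoter windows described next, TATAAA was in 7.02% of ribosomal protein promoters. Promoters with a summit had 6.35% and all promoters 13.5%. CACGTG was in 8.77%, against 11.1% and 8.01%. In the shorter of those windows, CACGTG was in 1.75%, against 6.95% and 4.87%. TATAAA was there in 3 of 57 promoters (5.26%, 1.81 to 14.4), against 2.46% and 7.37%. Against promoters with a summit, the higher share of CACGTG therefore held in neither window. That of TATAAA was small in the longer window and larger in the shorter one, where it rests on 3 genes and its interval includes 2.46%.

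The promoter table of mm10, from 250 bases before to 50 bases after the start, holds 57 of the 77 genes and 16457 protein-coding genes in all, of which 6903 had a summit within 1 kb. CAGCTG or CACCTG was found in 9 of the 57 promoters (15.8%, 8.54 to 27.4), against 27.9% of promoters with a summit and 31.6% of all promoters. With 100 bases before the start in place of 250, it was found in 3 of 57 (5.26%), against 14.5% and 17.9%. The 9 genes were Rpl6, Rps10, Rpl38, Rpl27, Rpl41, Rpl35, Rpl22, Rpl3l and Rpl10l, of which Rpl10l had no peak. Among ribosomal protein genes with a promoter sequence and a summit, the median signal was 135 at the 8 with such an E-box and 131 at the 47 without. CCGGAA was found in 28 of 57 promoters (49.1%, against 34.2% of promoters with a summit and 19.9% of all), and the median signal was 134 at genes with it and 131 at those without.

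A pyrimidine run, a C followed by at least 4 further pyrimidines beginning within 5 bases of the annotated start, was found on the gene's strand at 27 of 57 ribosomal protein genes (47.4%, 35.0 to 60.1), against 20.2% of promoters with a summit and 19.1% of all promoters. The run of Rps6 is shown in capitals above and begins 1 base before the annotated start. The median signal was 138 at the 26 genes with a run and a summit and 124 at the 29 without a run, with ranges of 64.1 to 224 and 45.7 to 253.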

How the data were processed

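Peaks were called by the authors on mm10 for each replicate and for pooled data as relaxed lists of 300000 peaks, and the optimal and conservative lists were derived from these by the IDR step, per the deposited file descriptions. A further file beside the alignments of the replicates is listed as input to the calls, and control reads were not analysed here. A separate list was made on mm9. Which aligner and caller were run is not given in the sources used here. The signal is the value the authors' caller deposited, with no stated scaling, and the scaled IDR score is deposited in the optimal and conservative lists, where scores of 830 and above stand for IDR values up to 0.01. The offset of the summit within each peak is also deposited.

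Gene spans came from RefSeq (GRCm38.p6), with strand from the promoter table for 16457 genes and from GENCODE vM1 by symbol for 3505, including 20 of the ribosomal protein genes. In all 96.6% of autosomal protein-coding genes had a strand. A summit was column 2 plus column 10, counted from 1, and coordinates were not converted between builds. Replicate values are the strongest relaxed peak that overlaps the optimal peak by at least 1 bp. Each replicate alone was read as its 35530 strongest peaks. Of several promoter entries, the one nearest to the strongest summit was used, or nearest to the 5' end where there was none. Genes named in full are the 12 strongest, those without a summit, those over 1 kb away or next to the 5 kb limit, paralogs and those with an E-box, with others picked after their values were seen. Some genes that this rule names are not reported here, though counts and medians include them. Psmc3ip, which shares a proteasome symbol but encodes no subunit, was left out of that list after its value was seen. The members, lists and motifs were chosen with earlier results of these data known. Analyses used Python 3.11.15, pandas 2.3.3 and SciPy 1.17.1, and the search for summits was tested on simulated data. No test across conditions was possible with 1 group.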

Additional observations from a re-analysis of the deposited data

How the results depend on the processing

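The counts of ribosomal protein genes with a summit within 5 kb (75) and 1 kb (69) stayed within a factor of 1.5 under every alternative run: a stricter IDR, the conservative list, each replicate alone, the mm9 list, limits of 2 kb or 10 kb, summits nearest to the gene's own 5' end and no restricted paralogs (these 4 for the first count only), a limit of 500 bp (for the second only), and, added after the data were seen, distance to any annotated start. They ranged from 68 to 75 and from 64 to 72. With only summits nearest to the gene's own 5' end the first count was 73. The median signal was 76.8 in replicate 1 alone, 53.4 in replicate 2 alone and 177 in the mm9 list, with no stated common scale, and the cause was not tested. The number of genes with CAGCTG or CACCTG at the mm9 summit was 1 of 68 with windows of 25 bp (1.47%, against 7.68% of promoter summits) and 5 with 100 bp (7.35%, against 25.4%), as the window's width alone changes the bases searched. No paired analysis was possible because there was 1 group. Read depth is unknown, so the precision of a signal is unknown.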

Other observations

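A motif outside the lists was noticed in the promoters printed above and then counted, so it is a description chosen after the data were seen. The palindrome TCTCGCGAGA, written the same on both strands, lay in 6 of the 57 ribosomal protein promoters (10.5%, 4.91 to 21.1), against 1.42% of promoters with a summit within 1 kb and 0.753% of all promoters. The 6 genes were Rpl26, Rpl10a, Rps6, Rps28, Rpl12 and Rps19, and their strongest signals, from 155 to 253, had a median of 212, against 124 at the 49 others with a promoter sequence and a summit. Rpl26, Rpl10a and Rps6 were printed for their strong peaks and are where the palindrome was noticed, so neither their signals nor their place in the count support anything. The share of the 57 promoters, its interval and the median of 212 all include them. The other 3 genes had 155 to 200, with a median of 179. Outside the ribosomal protein genes, 98 of 118 genes with the palindrome had a summit within 5 kb (83.1%), with a median signal of 78.9 (55.3 to 108, interquartile range), against 48.8% and 56.3 at genes without it. Such a share was not particular to the palindrome. Of other genes with CCGGAAGT, 88.1% had a summit, with a median signal of 66.6, and of those with CCGGAA 78.6%, with a median of 63.5. The remaining sites, in 30 bases on the gene's strand (RefSeq, GRCm38.p6) with the palindrome in capitals, are these.
Rps28, palindrome at chr17:33824554-33824563, minus strand: ccgcgtgcggTCTCGCGAGAgcgaaagtga
Rpl12, palindrome at chr2:32961658-32961667, plus strand: ggccagcggtTCTCGCGAGAgctgagcttt
Rps19, palindrome at chr7:24884584-24884593, plus strand: cactccgaaaTCTCGCGAGActcgacgccc
At the mm9 summits it lay within 25 bp at 0 of 68 genes, which allows a share of up to 4.41%, or 5.35% by the Wilson bound. It lay within 50 bp at 2 of 68 genes, but within 100 bp at 8 (11.8%), against 1.08% of promoter summits. The 68 genes include those where the palindrome was noticed.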
